A study of Homo sapiens with 6 samples.

Results

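The genes of DNA replication and nucleotide synthesis were followed in T24, a human bladder cancer cell line, after knockdown of the circular RNA circ_0000235 (circ235). They are 45 genes, listed by their known roles with earlier results of these data already known, out of the 58288 gene identifiers of the table, and all 45 were found by symbol. Every group was transfected with an siRNA: 2 libraries came from cells given a control siRNA (NC), 2 from cells given si-circ235-1 and 2 from cells given si-circ235-2, whose target is the joint that closes the circle in each case. The labels call the libraries of a group biological replicates and give no dose or time, there is no untransfected group, and all values are from the same cell line. The study sequenced these cells to look for mRNAs that lie downstream of circ235. Circ235 itself was not analysed here, since the RNA was enriched with oligo dT, which does not retain circles, and the table counts genes.

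Chromosomes are copied once per cell cycle. Licensing factors (the origin recognition complex, CDC6 and CDT1) load the ring-shaped MCM2-7 helicase onto DNA, and geminin (GMNN) blocks CDT1 once copying has begun. CDC45 and the GINS complex turn the ring into an active helicase, the clamp loader RFC sets the sliding clamp PCNA on DNA, and polymerases alpha, delta and epsilon build the new strands while RPA covers single-stranded DNA. FEN1 and LIG1 finish the lagging strand, ribonucleotide reductase, thymidylate synthase and thymidine kinase supply the building blocks, and CAF-1 packs the new DNA with histones. Many of these genes are known targets of E2F transcription factors and peak in S phase, so in dividing tumor cells their mRNAs are often read as proliferation genes.

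Promoter sequences are shown because E2F sites are what these genes are best known to have in common, a feature that the list did not use. In RefSeq's 300-base promoters (GRCh38.p14, 250 bases before to 50 after each start), 39 of the 45 genes had an entry, and MCM4, MCM5, GINS4, POLD3, RPA2 and RPA3 had none. The words searched were TTTCCCGC, TTTCGCGC, TTTGCCGC and TTTGGCGC for E2F, each on both strands. At least 1 of them was present in 19 of the 39 genes (48.7%), compared with 1090 of all 27305 genes in the table (3.99%). The word CCAAT was present in 24 of the 39 (61.5%), compared with 39.7% of all genes, and TTTGAA in 1 of the 39 (2.56%), compared with 18.2%. Overlaps between words were few, with 3 between E2F words and 1 between an E2F word and another word. A word is a match of letters and not a shown binding site. The 4 promoters below were chosen as holding an E2F word, so its presence there is no result. They are those of largest absolute fold change in any comparison among genes whose levels are described in full. They belong to POLA1, the catalytic subunit of polymerase alpha, GINS2, a subunit of the GINS complex, TYMS, thymidylate synthase, and PCNA, the sliding clamp. The entries of POLD2, TK1 and RRM2, also described in full, held none, nor did another PCNA entry. Each line gives the 250 bases before the RefSeq start, 5′ to 3′ on the gene's strand, and the capitals mark the E2F word, which in all 4 reads as its reverse complement.
POLA1 (chrX:24693668-24693917, plus strand): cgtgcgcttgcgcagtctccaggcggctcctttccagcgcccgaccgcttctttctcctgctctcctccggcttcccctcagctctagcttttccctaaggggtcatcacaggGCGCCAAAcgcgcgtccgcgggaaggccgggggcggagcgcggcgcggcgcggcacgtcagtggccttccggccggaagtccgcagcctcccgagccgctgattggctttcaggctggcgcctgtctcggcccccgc
GINS2 (chr16:85688955-85689204, minus strand): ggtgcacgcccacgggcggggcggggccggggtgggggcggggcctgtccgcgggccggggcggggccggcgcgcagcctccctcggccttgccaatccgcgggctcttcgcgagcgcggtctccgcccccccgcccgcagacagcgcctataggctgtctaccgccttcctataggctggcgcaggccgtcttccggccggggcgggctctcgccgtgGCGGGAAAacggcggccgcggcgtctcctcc
TYMS (chr18:657403-657652, plus strand): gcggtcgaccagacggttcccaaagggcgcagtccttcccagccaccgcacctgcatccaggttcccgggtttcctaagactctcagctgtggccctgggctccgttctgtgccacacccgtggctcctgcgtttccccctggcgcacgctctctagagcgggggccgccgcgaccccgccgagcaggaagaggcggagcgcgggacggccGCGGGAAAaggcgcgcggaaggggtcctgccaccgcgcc
PCNA (chr20:5126623-5126872, minus strand): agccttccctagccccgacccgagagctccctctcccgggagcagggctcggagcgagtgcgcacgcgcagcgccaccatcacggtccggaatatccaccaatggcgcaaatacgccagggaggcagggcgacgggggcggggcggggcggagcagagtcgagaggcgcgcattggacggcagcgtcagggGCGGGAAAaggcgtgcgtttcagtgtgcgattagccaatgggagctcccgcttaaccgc
Counted from the start, the word began at position -137 in POLA1, -31 in GINS2, -39 in TYMS and -59 in PCNA. Between the siRNAs, POLA1 was called higher and the other 3 lower with si-circ235-2.

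The libraries held 15373992 to 19912893 counts, and all 45 genes passed the filter on low counts, which kept 14415 genes. Levels are CPM, that is counts relative to the size of the library, scaled with TMM factors, which adjust the library totals for differences in composition and ran from 0.890 to 1.19. Levels are compared between genes as RPKM, which divides CPM by the length of the longest transcript in kilobases. In NC, RPKM was highest for PCNA (329 ± 0.796, SD, n = 2), TK1 (279 ± 78.9) and POLD2 (162 ± 37.3), and lowest for POLA1 (2.17 ± 0.740) and GINS4 (1.94 ± 0.712), with a median of 24.9 over the 45 genes. PCNA and TK1 did not differ beyond the spread of TK1, nor did POLA1 and GINS4. The T24 label was checked against markers: KRT7, KRT8, KRT18, VIM and CD44 were high. EPCAM was at 22 to 48 counts, KRT19 at 0 or 1 count and CDH1 at 0 to 6 counts. The leukocyte and the erythroid markers were at 0 in every library. The endothelial markers were not, with CDH5 at 5 to 41 counts and PECAM1 and VWF at 0 to 6. Marker sums were taken relative to library totals alone, without TMM factors. Epithelial line markers, with VIM and CD44 among them, summed to 5420 to 6349 CPM. Urothelial differentiation markers summed to 22.6 to 62.8 CPM and endothelial markers to 0.505 to 2.36 CPM. Most of the urothelial sum was PPARG, at 353 to 1069 counts. UPK3A and KRT20 were at 0 in every library, and the other urothelial markers were at 0 to 20 counts. In bulk RNA, a smaller share of cells in S phase and less mRNA per cell cannot be told apart. The p-values measure the spread between these libraries only, 2 in each condition.

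Against NC, si-circ235-1 left every one of the 45 genes short of the threshold, whereas si-circ235-2 lowered 12 and raised 2. A gene is named as called where edgeR's quasi-likelihood test gave a Benjamini-Hochberg adjusted p under 0.05 over all 14415 genes tested. With si-circ235-1, edgeR called 0 of the 45 (8 at an unadjusted p under 0.05), where it called 5.88% of all genes (2.24% higher and 3.64% lower), and the lowest adjusted p was 0.0550, for ORC6. DESeq2 called 2 of them, ORC6 and POLA1, both lower, where it called 5.58% of all genes lower. Without si-circ235-2 replicate 1, edgeR called 3 of the 45 under si-circ235-1 (GINS4, ORC6 and POLA1), all lower, where it called 5.7% of all genes lower. Without si-circ235-2 replicate 2 it called 4 (the same and POLD3), also lower, where it called 6.08% of all genes lower, so both counts were near the background. With si-circ235-2, edgeR called 14 of the 45 (31.1%), and it called 31.4% of all genes, so the share as a whole was near the background. By direction, 2 rose (4.44%) where 15.7% of all genes rose, and 12 fell (26.7%) where 15.7% of all genes fell. DESeq2 called 16 of the 45 under si-circ235-2, the same 14 with CHAF1B and RRM2 also lower, which made 2 higher and 14 lower where it called 15.5% of all genes higher and 16.5% lower. The median log2 fold change of the 45 genes was -0.28 with si-circ235-2 and -0.09 with si-circ235-1, beside medians of -0.0038 and -0.03 over all genes. Both comparisons share the NC libraries.

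The split rested on the scaling, and how many genes were called rested on single libraries. With a library left out, the median log2 fold change of the 45 genes under si-circ235-2 ran from -0.33 to -0.20. It was nearest to that of all genes without si-circ235-2 replicate 2 (-0.20, beside -0.02 over all genes). With library totals alone in place of TMM factors, 2 were called higher and 4 lower under si-circ235-2, where 22.0% of all genes were called higher and 8.98% lower, so the share that fell was then at the background and the share that rose under it. The median of all genes was 0.25 there, beside -0.0038 with TMM factors. That of the 45 genes was -0.28 relative to it, as with TMM factors. Without NC replicate 1, edgeR called 1 of the 45 (POLD2) and 5.1% of all genes, and without si-circ235-2 replicate 2 it called 5 (GINS4, POLD2, RPA3, TK1 and WDHD1) and 21.8% of all genes.

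Libraries of si-circ235-2 lay apart from both NC libraries for 36 genes, 10 higher and 26 lower, where 36.4% of all genes lay higher and 35.0% lower. Libraries of si-circ235-1 lay apart for 18 genes, 5 higher and 13 lower, where 26.2% of all genes lay higher and 28.8% lower. The median gap between the 2 libraries of a group was 0.18 on the log2 scale in each of the 3 conditions, and the largest was 1.59, for WDHD1 under si-circ235-2. The si-circ235-2 libraries had medians of -0.19 and -0.33 log2 CPM over the 45 genes relative to the NC mean, the si-circ235-1 libraries -0.04 and -0.09.

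**Figure D1:**
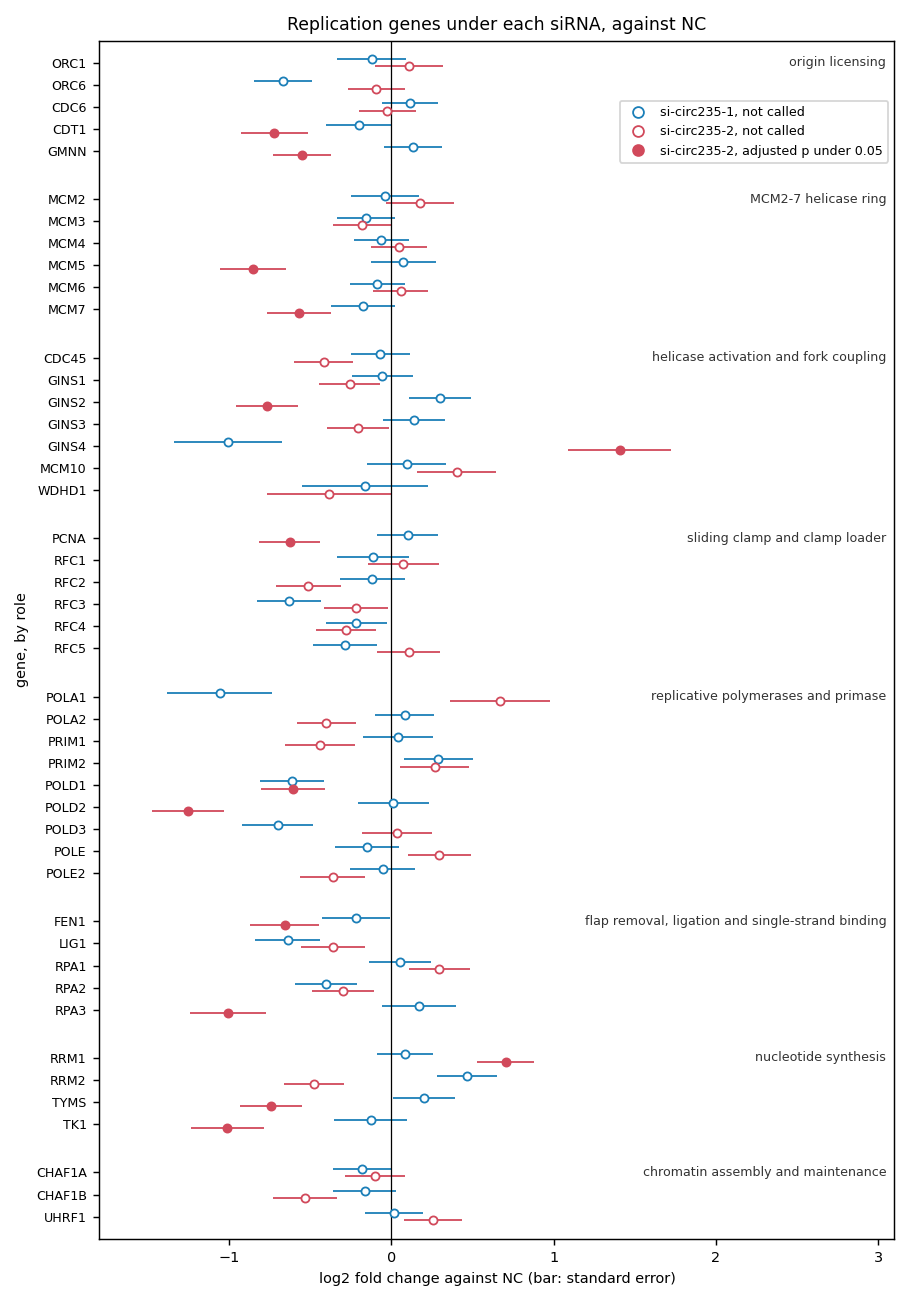
The log2 fold change against NC (horizontal axis, bars are standard errors) is plotted for each of the 45 genes, grouped by role, for si-circ235-1 in blue and si-circ235-2 in red, with filled points where the adjusted p was under 0.05. The 14 filled points all belong to si-circ235-2, 12 left of 0 and 2 (GINS4 and RRM1) right of it.

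**Figure D2:**
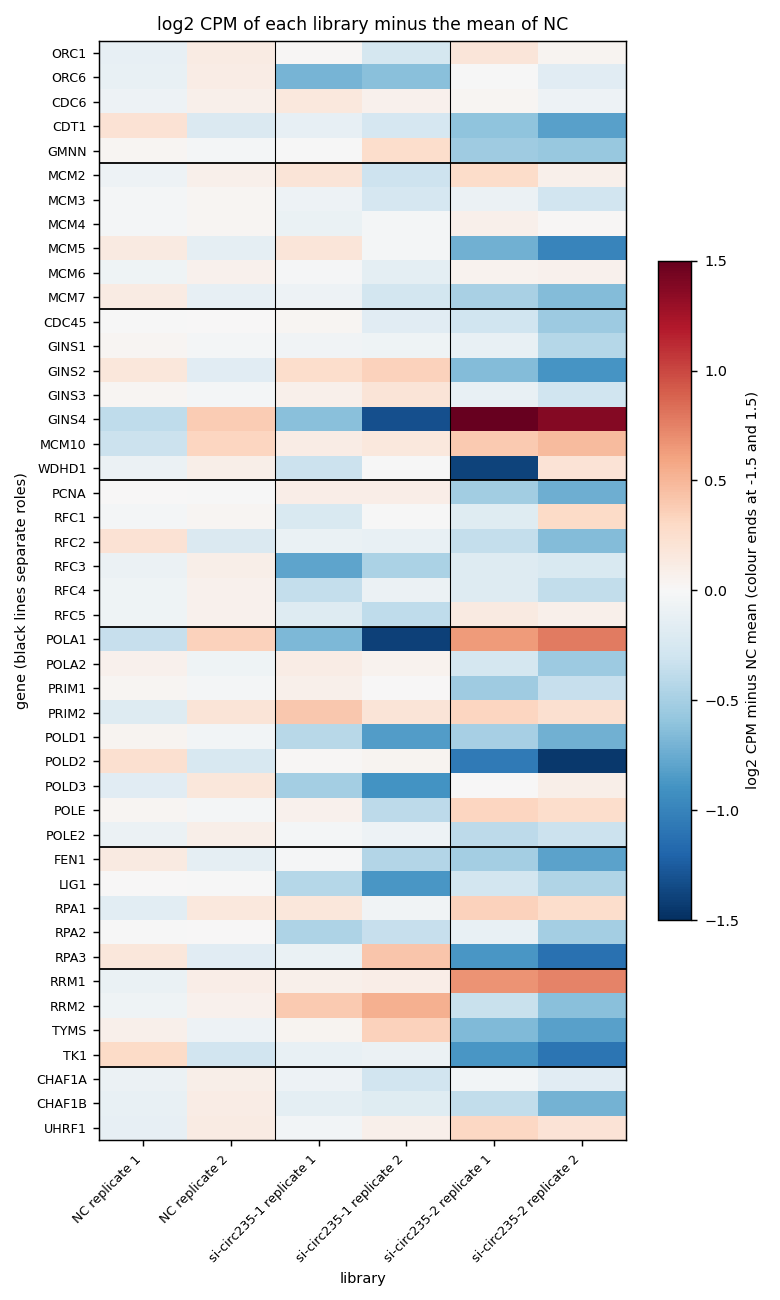
Each cell is the log2 CPM of 1 gene in 1 library minus the mean of that gene over the NC libraries, with colours ending at -1.5 and 1.5 and black lines between roles. Most of the deeper blue cells lie in the si-circ235-2 columns, where GINS4, RRM1 and POLA1 are red and WDHD1 differs between the libraries. The si-circ235-1 columns also hold some, among them those of ORC6, GINS4, POLA1 and POLD3.

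Among the 5 licensing genes, CDT1 and GMNN fell with si-circ235-2, and ORC1, ORC6 and CDC6 were not called. CDT1, the factor that brings the helicase to origins, measured 347 and 257 CPM in NC, 274 and 252 with si-circ235-1, and 197 and 169 with si-circ235-2. Both si-circ235-2 libraries lay under every other library, while the NC libraries were themselves far apart. Its log2 fold change was -0.72 ± 0.21 (SE, edgeR adjusted p = 0.0227) under si-circ235-2 and -0.20 ± 0.20 (adjusted p = 0.590) under si-circ235-1. Geminin, the inhibitor of CDT1, fell by 0.55 on the log2 scale (adjusted p = 0.0376), from 84.4 and 81.0 to 57.2 and 55.6 CPM, so activator and inhibitor moved the same way. ORC6, a subunit of the origin recognition complex, had its low values under the other siRNA, with 57.4 and 60.4 CPM beside 86.1 and 101 in NC and 92.7 and 82.9 with si-circ235-2. CDC6, the loading ATPase, and ORC1 had log2 fold changes between -0.12 and 0.11 in both comparisons. The CDT1 call was lost without NC replicate 1 (log2 fold change -0.49, adjusted p = 0.191), without si-circ235-2 replicate 2 (-0.62, adjusted p = 0.133) and after removal of a length and GC trend (-0.24, adjusted p = 0.186). The GMNN call was lost under 7 of the alternatives, among them each left-out library of NC and of si-circ235-2.

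The 6 subunits of the MCM2-7 ring did not move as a unit: MCM5 and MCM7 fell with si-circ235-2, and the other 4 were not called, with log2 fold changes from -0.18 to 0.18. MCM5 measured 333 and 274 CPM in NC, 343 and 295 with si-circ235-1, and 184 and 152 with si-circ235-2. Its values under si-circ235-2 did not overlap with those of the other conditions, which overlapped with each other. Under si-circ235-2 the log2 fold change was -0.85 ± 0.20 (adjusted p = 0.0100), and it was 0.07 ± 0.20 (adjusted p = 0.860) under si-circ235-1. MCM2 measured 174 and 192 CPM in NC, 209 and 147 with si-circ235-1, and 221 and 192 with si-circ235-2. Its conditions lay close together, with log2 fold changes of 0.18 ± 0.21 (adjusted p = 0.550) under si-circ235-2 and -0.04 ± 0.21 (adjusted p = 0.930) under si-circ235-1. MCM7 had a log2 fold change of -0.57 (adjusted p = 0.0481) under si-circ235-2, and 392 of its 4386 exon bases lie over exons of AP4M1 on the other strand, which unstranded counts cannot separate. AP4M1 itself was lower under both siRNAs (log2 fold changes of -1.16 and -1.23, adjusted p = 0.0393 and 0.00863), at 64.0 CPM or less, and its part in the MCM7 value was not tested. Without NC replicate 1 the MCM5 log2 fold change was -0.71 (adjusted p = 0.0888), and without si-circ235-2 replicate 2 it was -0.72 (adjusted p = 0.0744), so both calls were lost there. The MCM7 call was lost under 9 of the alternatives, among them each of the 6 left-out libraries.

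In the group that activates the helicase, 1 GINS subunit rose and another fell. GINS4 measured 5.58 and 9.47 CPM in NC, 4.69 and 2.85 with si-circ235-1, and 20.9 and 19.1 with si-circ235-2. Its 3 conditions did not overlap, the si-circ235-2 libraries being the highest and the si-circ235-1 libraries the lowest. That was a log2 fold change of 1.41 ± 0.32 (adjusted p = 0.00851) under si-circ235-2, a 2.65-fold rise, and -1.01 ± 0.33 (adjusted p = 0.0943) under si-circ235-1. GINS2 measured 102 and 81.0 CPM in NC, 109 and 116 with si-circ235-1, and 58.2 and 49.4 with si-circ235-2, the reverse order. This gave -0.77 ± 0.19 on the log2 scale (adjusted p = 0.0128) under si-circ235-2 and 0.30 ± 0.19 (adjusted p = 0.360) under si-circ235-1. The other members of the same complex, GINS1 and GINS3, had log2 fold changes of -0.26 and -0.21 under si-circ235-2 and were not called. CDC45, which joins MCM2-7 and GINS in the active helicase, had -0.42 (adjusted p = 0.105), and MCM10, an activation factor, 0.40 (adjusted p = 0.230). WDHD1, which links the helicase to polymerase alpha, gave no stable value under si-circ235-2, with 15.6 CPM in replicate 1 and 47.2 in replicate 2, and it was called there once replicate 2 was left out. Without NC replicate 1 the adjusted p of GINS4 was 0.102 and that of GINS2 0.118, and without si-circ235-2 replicate 2 that of GINS2 was 0.0897.

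PCNA, the clamp that holds polymerases on DNA, fell with si-circ235-2, and none of the 5 subunits of its loader RFC was called. PCNA measured 448 and 446 CPM in NC, 477 and 481 with si-circ235-1, and 310.1 and 269 with si-circ235-2. The NC libraries were close to each other, the si-circ235-1 libraries lay just over them and the si-circ235-2 libraries far under them. Its log2 fold change was -0.63 ± 0.19 (adjusted p = 0.0279) under si-circ235-2 and 0.10 ± 0.19 (adjusted p = 0.784) under si-circ235-1. The loader subunits ran from -0.51 (RFC2, adjusted p = 0.0745) to 0.10 (RFC5, adjusted p = 0.716) under si-circ235-2. Under si-circ235-1 they ran from -0.63 (RFC3, adjusted p = 0.0819) to -0.11 (RFC1, adjusted p = 0.799). The PCNA call was lost whenever a library of NC or of si-circ235-2 was left out, with adjusted p of 0.117 and 0.0835 without NC replicates 1 and 2, and 0.0624 and 0.198 without si-circ235-2 replicates 1 and 2.

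Among the 9 polymerase and primase subunits, POLD2 of polymerase delta gave the largest fall, under si-circ235-2. POLD2, an accessory subunit, measured 407 and 293 CPM in NC, 349 and 356 with si-circ235-1, and 166 and 127 with si-circ235-2. The si-circ235-1 libraries lay between the NC libraries, and the si-circ235-2 libraries lay under all others. The log2 fold change was -1.26 ± 0.22 (adjusted p = 0.00351) under si-circ235-2, a 2.39-fold fall, and 0.01 ± 0.22 (adjusted p = 0.985) under si-circ235-1. It was the only one of the 45 genes called under si-circ235-2 with each of the 6 libraries left out in turn. POLD1, the catalytic subunit, had nearly the same log2 fold change under both siRNAs, -0.61 ± 0.20 (adjusted p = 0.0372) under si-circ235-2 and -0.61 ± 0.20 (adjusted p = 0.0870) under si-circ235-1. The accessory subunit POLD3 had 0.03 under si-circ235-2 and -0.70 (adjusted p = 0.0785) under si-circ235-1.

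POLA1, the catalytic subunit of polymerase alpha, measured 9.05 and 14.8 CPM in NC, 7.20 and 4.30 with si-circ235-1, and 18.1 and 19.9 with si-circ235-2. As for GINS4, the 3 conditions did not overlap and stood in the order si-circ235-1, NC, si-circ235-2. Neither difference from NC passed the test, with log2 fold changes of 0.67 ± 0.31 (adjusted p = 0.120) and -1.06 ± 0.32 (adjusted p = 0.0747). Its partner POLA2 had -0.40 (adjusted p = 0.118) under si-circ235-2, and the primase subunits PRIM1 and PRIM2 had -0.44 and 0.27. POLE, the catalytic subunit of polymerase epsilon, measured 96.4 and 93.0 CPM in NC, 98.8 and 71.8 with si-circ235-1, and 119 and 113 with si-circ235-2. Its si-circ235-2 libraries lay over all others, but the log2 fold change of 0.29 ± 0.19 was not called (adjusted p = 0.275), and it was -0.15 ± 0.19 (adjusted p = 0.679) under si-circ235-1. POLE2, a second subunit of the same enzyme, had -0.36 (adjusted p = 0.191) under si-circ235-2. DESeq2 called POLA1 lower under si-circ235-1. The POLD1 call was lost under 6 of the alternatives, among them each left-out library of NC and of si-circ235-2.

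Of the genes for flap removal, ligation and single-strand binding, RPA3 and FEN1 fell with si-circ235-2. RPA3, the small subunit of the single-strand binding complex, measured 56.3 and 44.2 CPM in NC, 46.5 and 66.3 with si-circ235-1, and 27.1 and 22.8 with si-circ235-2. Its si-circ235-2 libraries lay under the other 4, which overlapped. RPA3 had a log2 fold change of -1.01 ± 0.23 (adjusted p = 0.00917) under si-circ235-2 and 0.17 ± 0.23 (adjusted p = 0.694) under si-circ235-1. The partners RPA1 and RPA2 had log2 fold changes of 0.30 (adjusted p = 0.258) and -0.30 (adjusted p = 0.254) under si-circ235-2, so the 3 subunits were spread over both sides of 0. FEN1, the flap nuclease, had -0.66 (adjusted p = 0.0362) under si-circ235-2, a call lost without TMM factors and without si-circ235-2 replicate 2. On the other strand, exons of TMEM258 lie over 166 of the 2478 exon bases of FEN1. Those of UMAD1 lie over 118 of the 3232 of RPA3, and unstranded counts cannot separate either pair. LIG1, the ligase of the lagging strand, had -0.36 (adjusted p = 0.191) there and -0.64 (adjusted p = 0.0818) under si-circ235-1. Without NC replicate 1, the RPA3 log2 fold change was -0.83 (adjusted p = 0.0968), and the FEN1 call was also lost.

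Of the 4 genes of nucleotide synthesis, TK1 and TYMS fell and RRM1 rose under si-circ235-2, while of the 29 other genes tested from a wider list of this pathway 31.0% were called, near the 31.4% of all genes. TK1, the thymidine kinase of dividing cells, measured 563 and 376 CPM in NC, 427 and 432 with si-circ235-1, and 251 and 215 with si-circ235-2. The NC libraries were far apart, and the si-circ235-2 libraries lay under both. The log2 fold change was -1.01 ± 0.23 (adjusted p = 0.00841) under si-circ235-2, a 2.02-fold fall, and -0.13 ± 0.22 (adjusted p = 0.770) under si-circ235-1. TYMS, which makes thymidylate, measured 67.8 and 60.9 CPM in NC, 66.1 and 81.7 with si-circ235-1, and 40.4 and 36.4 with si-circ235-2. In log2 terms TYMS changed by -0.74 ± 0.19 (adjusted p = 0.0148) under si-circ235-2, and it was at 0.20 ± 0.19 (adjusted p = 0.552) under si-circ235-1. Unstranded counts limit this gene, as 967 of its 2470 exon bases (39.1%) lie over exons of ENOSF1 on the other strand. ENOSF1 had a log2 fold change of 0.13 (adjusted p = 0.629) under si-circ235-2, with 39.2 to 55.4 CPM over the 6 libraries.

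The subunits of ribonucleotide reductase, which turns ribonucleotides into deoxyribonucleotides, went apart. RRM1, the large subunit, rose from 60.1 and 69.5 CPM in NC to 103 and 108 with si-circ235-2 (log2 fold change 0.70 ± 0.17, adjusted p = 0.0127) and measured 68.2 and 69.1 with si-circ235-1. RRM2, the small subunit whose level normally follows S phase, measured 158 and 173 CPM in NC, 217 and 239 with si-circ235-1, and 131 and 107 with si-circ235-2. The 3 conditions did not overlap, in the order si-circ235-2, NC, si-circ235-1, yet neither difference from NC was called by edgeR, while DESeq2 called RRM2 lower under si-circ235-2. The log2 fold changes were -0.48 ± 0.19 (adjusted p = 0.0732) under si-circ235-2 and 0.46 ± 0.19 (adjusted p = 0.149) under si-circ235-1. Without NC replicate 1 the calls of TK1 (adjusted p = 0.0883), TYMS (adjusted p = 0.108) and RRM1 were lost, and without si-circ235-2 replicate 2 those of TYMS (adjusted p = 0.0788) and RRM1. With a length and GC trend removed, the TK1 log2 fold change shrank to -0.26 (adjusted p = 0.174), and RRM2 was called lower (-0.91, adjusted p = 0.00389).

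None of the 3 genes of chromatin assembly was called against NC by edgeR, while DESeq2 called CHAF1B lower under si-circ235-2. CHAF1B, the middle subunit of CAF-1, had -0.53 (adjusted p = 0.0600) under si-circ235-2, its partner CHAF1A had -0.10 (adjusted p = 0.704), and UHRF1, which guides maintenance of DNA methylation, had 0.25 (adjusted p = 0.303). Under si-circ235-1 the 3 genes ran from -0.18 to 0.02.

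**Figure D3:**
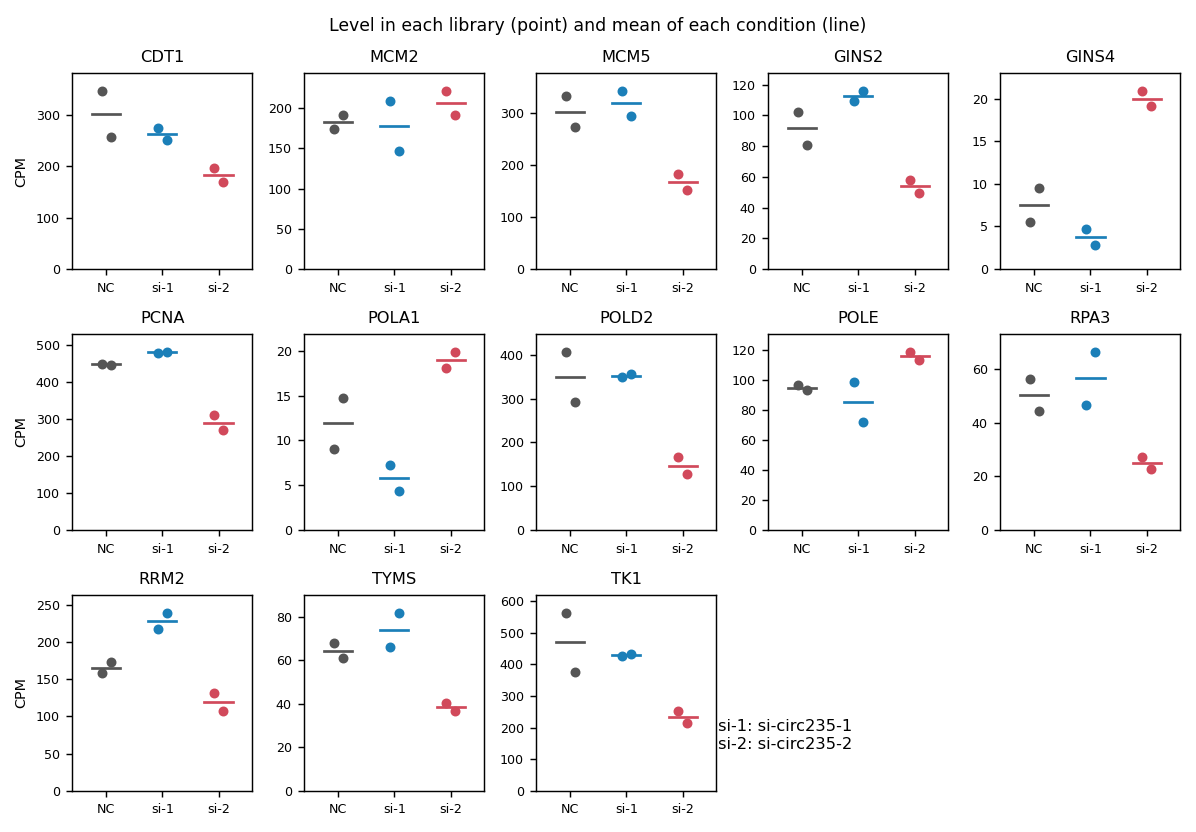
CPM (vertical axis, from 0) is plotted for each of the 6 libraries of the 13 genes described with full values, with a line at the mean of each condition. The si-circ235-2 points lie under both other conditions for CDT1, MCM5, GINS2, PCNA, POLD2, RPA3, RRM2, TYMS and TK1, and over them for GINS4, POLA1 and POLE.

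Both siRNAs were then set against each other, to ask which genes responded differently. Of the 45 genes, 14 were called (31.1%) where 39.7% of all genes were called, so the share was under the background. Those higher with si-circ235-2 were 5 (11.1%) where 21.1% of all genes were higher, and those lower were 9 (20.0%) where 18.6% of all genes were lower. With library totals alone the split turned to 11 higher and 7 lower, where 31.5% of all genes were higher and 10.4% lower. The median of all genes was 0.37 there, beside 0.04 with TMM factors. After removal of a length and GC trend it was 5 higher and 19 lower, where 17.2% of all genes were higher and 23.2% lower. The largest difference was that of GINS4 (log2 2.42 ± 0.33, adjusted p = 0.000772), which was 5.34-fold higher with si-circ235-2 than with si-circ235-1. POLA1 followed (1.73 ± 0.32, adjusted p = 0.00230), and POLD3, RRM1 and ORC6 were higher by 0.74, 0.62 and 0.58. POLD2 was lower by the most (-1.27 ± 0.22, adjusted p = 0.00177), ahead of RPA3 (-1.18 ± 0.23, adjusted p = 0.00304), GINS2 (-1.07 ± 0.19, adjusted p = 0.00199), TYMS (-0.94 ± 0.19, adjusted p = 0.00342), RRM2 (-0.94 ± 0.19, adjusted p = 0.00311) and MCM5 (-0.93 ± 0.20, adjusted p = 0.00483). TK1 (-0.88 ± 0.23, adjusted p = 0.0110), PCNA (-0.73 ± 0.19, adjusted p = 0.0115) and GMNN (-0.69, adjusted p = 0.0119) completed the group. Of the 14 genes, 10 were also called against NC under si-circ235-2, a comparison that shares the si-circ235-2 libraries. CDT1 (-0.52 ± 0.21, adjusted p = 0.0638), POLE (0.44 ± 0.19, adjusted p = 0.0916) and MCM2 (0.22 ± 0.21, adjusted p = 0.433) were not called. Without si-circ235-1 replicate 2 the calls came to 8, beside 18.7% of all genes, and without si-circ235-2 replicate 2 to 9, beside 30.5% of all genes.

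With both siRNAs as 1 group against NC, edgeR called 0 of the 45 (1 at unadjusted p under 0.05) and 0.0% of all genes. DESeq2 called 0 of the 45, where it called 0.708% of all genes higher and 0.402% lower. The gene at an unadjusted p under 0.05 was POLD1 (log2 fold change -0.61, adjusted p = 0.490). With 1 mean per condition and the mean of both siRNAs set against NC, POLD1 alone of the 45 was called, lower. That fit called 4.68% of all genes higher and 5.08% lower, so the share of the 45 was under the background.

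Ratios between subunits of 1 complex within a library do not depend on the scaling of that library. The pairs were chosen after the values were seen, so they are a description with no test. Reads of RRM2 per read of RRM1 were 2.63 and 2.48 in NC, 3.19 and 3.46 with si-circ235-1, and 1.27 and 0.988 with si-circ235-2. MCM5 per MCM2 went from 1.92 and 1.43 in NC to 0.831 and 0.791 with si-circ235-2, and was 1.64 and 2.02 with si-circ235-1. RPA3 per RPA1 went from 0.387 and 0.245 in NC to 0.132 and 0.118 with si-circ235-2. These 3 ratios were lower with si-circ235-2 than in any other library. GINS4 per GINS2 was 0.0545 and 0.117 in NC, 0.0428 and 0.0246 with si-circ235-1, and 0.359 and 0.387 with si-circ235-2. POLA1 per POLA2 was 0.120 and 0.215 in NC, 0.0920 and 0.0576 with si-circ235-1, and 0.302 and 0.402 with si-circ235-2. POLD2 per POLD3 was 11.2 and 6.36 in NC, 12.1 and 16.2 with si-circ235-1, and 4.05 and 2.92 with si-circ235-2. In the last 3 pairs, and for RRM2 per RRM1, the si-circ235-1 and si-circ235-2 libraries lay on opposite sides of both NC libraries.

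**Figure D4:**
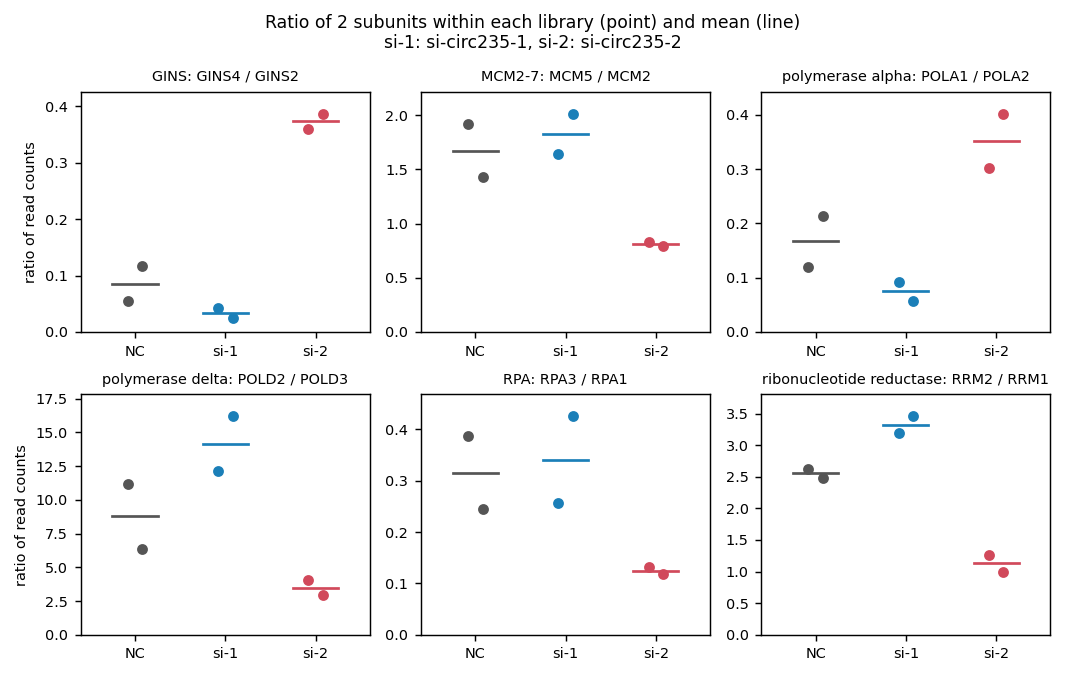
The ratio of read counts of 2 subunits of 1 complex (vertical axis, from 0) is plotted within each of the 6 libraries, with a line at the mean of each condition. The si-circ235-2 points lie apart from all other points in each of the 6 panels, low for MCM5/MCM2, POLD2/POLD3, RPA3/RPA1 and RRM2/RRM1 and high for GINS4/GINS2 and POLA1/POLA2.

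Under si-circ235-2 the log2 fold changes moved with transcript length, in the 45 genes as in all genes. Over the 45 genes, Spearman's rho between log2 fold change and transcript length was 0.48 under si-circ235-2 and -0.13 under si-circ235-1, and over all genes with a length (14386) it was 0.44 and 0.04. With GC content, rho over all genes was -0.26 under si-circ235-1 and -0.22 under si-circ235-2, and over the 45 genes -0.12 and -0.37. Genes share libraries and are not independent, so rho is a description. Of the 23 genes with transcripts of up to 3208 bases, the median length, 1 rose (4.35%) and 9 fell (39.1%) under si-circ235-2 (median log2 fold change -0.42), while of all 6835 genes of up to that length 4.87% rose and 25.7% fell (median -0.37). Of the 22 longer ones, 1 rose (4.55%) and 3 fell (13.6%, median 0.01), while of all 7551 longer genes 25.6% rose and 6.66% fell (median 0.29). After a spline over length and GC content had been subtracted in every library, rho with length over the 45 genes was -0.01 under si-circ235-2. With GC content, rho over the 45 was then -0.14 under si-circ235-2, 0.45 under si-circ235-1 and -0.32 between the siRNAs. Before the removal these values were -0.37, -0.12 and -0.27. Under si-circ235-1 the sign thus turned and the relation to GC content was stronger after the removal, which limits the calls made after it. Under si-circ235-2, 2 genes were then called higher and 14 lower, where 11.2% of all genes were called higher and 14.7% lower. Of the 14 earlier calls, 10 were kept. CDT1, GMNN, POLD1 and TK1 were then no longer called, while CDC6, CHAF1B, LIG1, MCM4, POLA2 and RRM2 were called lower. The part of transcript length in the fold changes was not tested beyond this.

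**Figure D5:**
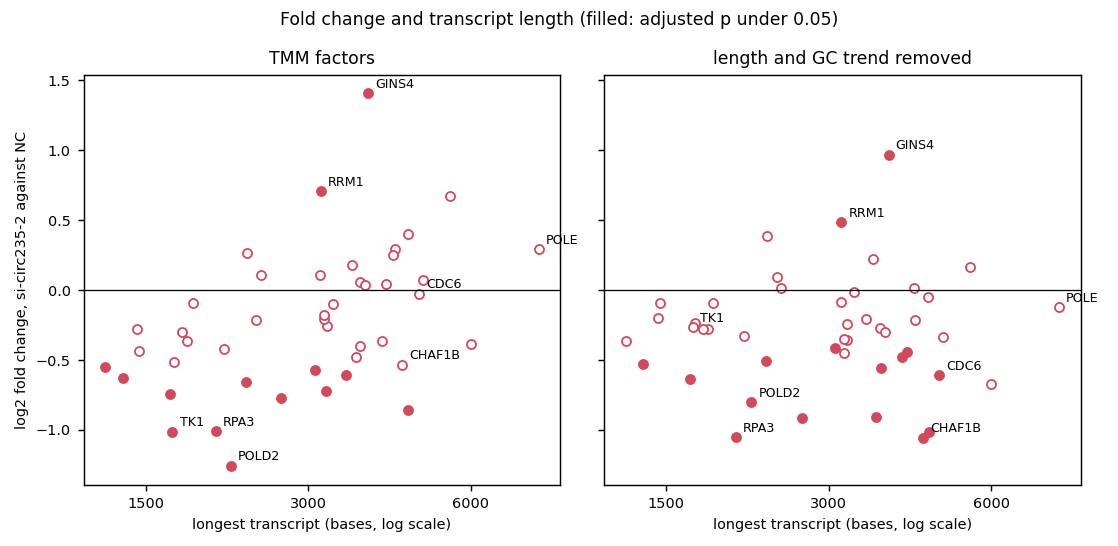
The log2 fold change of si-circ235-2 against NC is plotted for the 45 genes against the length of the longest transcript (log scale), with TMM factors on the left and after removal of the length and GC trend on the right, filled where the adjusted p was under 0.05. On the left the points rise with length (rho 0.48), and on the right they do not (rho -0.01), with 14 and 16 filled points.

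The E2F words were not confined to the genes that fell. Of the 12 genes called lower under si-circ235-2, 10 had a promoter entry and 6 of these held an E2F word, among them GINS2, TYMS and PCNA shown above. Of the 31 genes not called, 28 had an entry and 13 held a word. Of the 2 called higher, 1 had an entry (RRM1), without a word.

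Other genes of the same pathways, from lists by known role, gave a wider view. Of 33 other replication genes, 5 rose and 8 fell under si-circ235-2 (median log2 fold change -0.27). The largest changes there were those of CLSPN, the checkpoint mediator claspin (2.04 ± 0.33, adjusted p = 0.00288), RNASEH2C, a subunit of the nuclease that removes RNA from RNA-DNA hybrids (-1.52 ± 0.28, adjusted p = 0.00393), and POLE4, a small subunit of polymerase epsilon (-1.10 ± 0.24, adjusted p = 0.00813). Of 29 other nucleotide synthesis genes, 3 rose and 6 fell (median 0.02), with NME1, a nucleoside diphosphate kinase (-1.29 ± 0.25), DTYMK, thymidylate kinase (-0.99 ± 0.24), and DUT, the dUTPase (-0.98 ± 0.20), lower by the most. Of 12 other chromatin assembly genes, 0 rose and 2 fell, ASF1B and TONSL. Together these 74 genes gave 8 higher (10.8%) and 16 lower (21.6%), beside 15.7% in each direction over all genes. Under si-circ235-1, 0 of the 74 were called higher and 2 lower (2.70%), CHTF8 (-0.97 ± 0.24) and SUPT16H (-0.81 ± 0.20), where 2.24% of all genes were called higher and 3.64% lower.

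Among the 31 genes of G1 to S control, 7 rose (22.6%) and 5 fell (16.1%) under si-circ235-2, beside 15.7% of all genes in each direction, so the falls were at the background. The largest rises were those of RBL2, a pocket protein of the RB family (2.42 ± 0.29, adjusted p = 0.00179), the repressor E2F7 (1.54 ± 0.20) and the activator E2F3 (1.07 ± 0.23). Under si-circ235-1, 1 of the 31 rose (CCND2, cyclin D2, 0.97 ± 0.24) and 1 fell (E2F2, -0.90 ± 0.21). Of 23 checkpoint and fork repair genes tested, 4 rose (17.4%, near the 15.7% of all genes) and 1 fell (4.35%) under si-circ235-2, with WEE1, FANCI and PALB2 higher by 0.99, 0.91 and 0.89. Of 34 mitosis genes, 5 rose (14.7%) and 7 fell (20.6%) under si-circ235-2, near the 15.7% of all genes in each direction. Under si-circ235-1, 0 of the 34 rose and 3 fell (8.82%, beside 3.64% of all genes), where FOXM1, CDC25B and AURKB had log2 fold changes of -1.95, -1.31 and -0.86.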

How the data were processed

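Polyadenylated RNA of T24 cells was sequenced without strand information in 6 libraries, 2 biological replicates each of NC, si-circ235-1 and si-circ235-2 (siControl, siRNA1 and siRNA2 in the labels). The authors deposited whole-number read counts for each gene, not normalized. Per the submitters' processing notes FastQC, cutadapt and STAR were used with hg38, while the counter is not given in the sources used here, nor is the annotation. Each library held 15373992 to 19912893 counts, so precision is limited by having 2 libraries in each group rather than by depth. Replicates differed by more than sampling noise (chi-square per degree of freedom 23.4 to 34.9).

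Of 58288 identifiers, 99.5% were matched to GENCODE 29, which gave symbols and the length and GC content of the longest transcript. Counts were fitted in R 4.3.3 with edgeR 4.0.16 (filterByExpr, TMM, quasi-likelihood test over 14415 genes, Benjamini-Hochberg threshold 0.05), with 1 mean per condition over all 6 libraries, or with both siRNAs as 1 group. CPM, RPKM and standard errors (the log2 fold change over the square root of F) were computed here. Scripts were tested on simulated data.

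The members and lists were chosen with earlier results of these data known. Values in every library are given for members called against NC under both siRNAs (none), the 8 largest changes among those called in each comparison, and PCNA, MCM2, RRM2, TYMS and POLE. Of the other lists at most the 3 largest called changes are named. Exons of 13 members overlap another tested gene, and 8 have a total of 15 pseudogenes named after them, each at 0 or 1 counts over all libraries.

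Alternatives were DESeq2 1.42.0, its size factors in edgeR, library totals without TMM, all genes with a count in place of the filter, the replicate number as a block, only the compared conditions, the removal of a spline trend (5 degrees of freedom) over length and GC content, and each library left out.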

Additional observations from a re-analysis of the deposited data

Results flagged for a closer look

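The response to si-circ235-2 differed from that to si-circ235-1 for 14 of the 45 genes (31.1%), under the 39.7% of all genes that differed. The test was edgeR's quasi-likelihood test of the difference itself, with adjusted p under 0.05 over all genes tested. With si-circ235-2 minus si-circ235-1 on the log2 scale, the difference was 2.42 for GINS4, 1.73 for POLA1, 0.74 for POLD3, 0.62 for RRM1 and 0.58 for ORC6. It was -1.27 for POLD2, -1.18 for RPA3, -1.07 for GINS2, -0.94 for TYMS, -0.94 for RRM2, -0.93 for MCM5, -0.88 for TK1, -0.73 for PCNA and -0.69 for GMNN. The calls of GINS4, POLA1, POLD2, RPA3, GINS2, TYMS, RRM2 and MCM5 were kept with each of the 6 libraries left out in turn. Those of the other 6 genes were lost without si-circ235-1 replicate 2. Groups of 2 libraries are too small for a test of single outlying libraries.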

How the results depend on the processing

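Under si-circ235-1, 0 calls with edgeR became 2 with DESeq2, both lower, where 4.95% of all genes were called higher and 5.58% lower. Without the filter on low counts they were 3, all lower, where 2.37% of all genes were higher and 4.13% lower. With only the compared conditions they were 3, all lower, where 5.14% of all genes were higher and 6.84% lower. After removal of the length and GC trend 1 was higher and 4 lower, where 8.25% of all genes were higher and 5.41% lower. Calls also arose without either si-circ235-2 library, as given above. Under si-circ235-2, 14 became 6 without TMM factors, and 1 to 13 with a library left out, fewest without NC replicate 1 (1) and si-circ235-2 replicate 2 (5). Between the siRNAs, 14 became 24 with the trend removed, and 8 to 15 with a library left out, fewest without si-circ235-1 replicate 2 (8) and si-circ235-2 replicate 2 (9). With both siRNAs as 1 group, 0 became 1 for their mean in the fit by condition. There 4.68% of all genes were called higher and 5.08% lower. The replicate number as a block gave 0, 15, 17 and 0 calls in these 4 comparisons. Of all genes, the block fit called 2.56% higher and 3.94% lower under si-circ235-1, and 16.0% and 16.9% under si-circ235-2. Between the siRNAs it called 21.8% and 20.1%, and 0.0% with both siRNAs as 1 group. Deviations of same-numbered libraries correlated at -0.094, 0.149 and 0.139. No label says that a number marks a shared batch, and whether one was shared cannot be told.

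Signs of some log2 fold changes that were not called turned. Under si-circ235-1, TK1 had 0.16, CDT1 0.15, MCM2 0.25 and POLE 0.014 after removal of the trend, and POLD2 had -0.053 without TMM factors. With a library left out, POLD2 ran from -0.17 to 0.26, TK1 from -0.35 to 0.19, RPA3 from -0.11 to 0.40, MCM5 from -0.043 to 0.22, CDT1 from -0.36 to 0.034, MCM2 from -0.32 to 0.19 and POLE from -0.40 to 0.063. Under si-circ235-2, POLE had -0.12 after removal of the trend. Between the siRNAs, MCM2 had -0.023 and POLE -0.14 after removal of the trend, and MCM2 ran from -0.022 to 0.49 with a library left out. The cause was not tested. No sign of a called log2 fold change turned among the 13 genes given in full. A left-out library leaves its condition with 1 library, whose spread is assumed to be that of the others.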

Other observations

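Genes outside the 45 also differed between the siRNAs, from lists made by known role, and over all genes tested 21.1% were higher and 18.6% lower with si-circ235-2. Of 34 mitosis genes, 9 were higher (26.5%) and 10 lower (29.4%) with si-circ235-2 than with si-circ235-1 by edgeR, with FOXM1, a transcription factor of late cell cycle genes, higher by 2.74 ± 0.36 (log2, adjusted p = 0.000653), CDCA8 by 1.62 and BUB1B by 1.59. Of 31 genes of G1 to S control, 7 were higher (22.6%) and 5 lower (16.1%), near the shares of all genes, with RBL2 higher by 2.64, E2F3 by 1.51 and E2F8 by 1.46. Of 23 checkpoint and fork repair genes, 5 were higher (21.7%, near the share of all genes) and 1 lower (4.35%), with PALB2, FANCD2 and FANCA higher by 1.36, 1.12 and 1.11. Of 29 other nucleotide synthesis genes, 4 were higher (13.8%) and 5 lower (17.2%), with NME1 (-1.31), DTYMK (-1.29) and DCK (-1.27), a deoxycytidine kinase, lower by the most.

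WDHD1 had the widest gap between the libraries of 1 condition among the 45 genes, 1.59 on the log2 scale under si-circ235-2 (265 and 988 counts), wider than that of 97.5% of all genes tested in that condition. In NC the gaps were widest for GINS4 (0.75) and POLA1 (0.70), the genes with the fewest reads for their length, and in si-circ235-1 for POLA1 (0.73) and GINS4 (0.70).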
